A study of Homo sapiens with 18 samples.

Results

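The comparison described here is 24 h of olaparib against no treatment in the empty-vector line (HCC1937-EV), chosen by the column names of the deposited count matrix: 3 libraries taken after 24 h and 3 untreated libraries, 6 of the 18 in the series. HCC1937 is an established human breast cancer line with a mutated BRCA1 gene. The study compared cells carrying an empty vector with cells overexpressing BRCA1, without olaparib and after 12 h and 24 h of it, by RNA sequencing with 3 libraries per condition. The study's methods give the olaparib concentration as 10 µmol/L. The labels list olaparib as the treatment of every library, the untreated ones included, and list the genotype of the empty-vector line as wild type, so the treatment was taken from the hours in the sample titles. Both groups compared here carried the empty vector and no added BRCA1, and their titles differ in the hours of drug. The titles name no untreated library taken at 24 h, so the drug cannot be told apart from time in culture. Each vector is represented by 1 line, and nothing in the labels states that the 3 libraries came from separate cultures. The p-values therefore measure the spread between libraries of a condition, estimated over all 18 of the series, which may be technical.

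PARP1 and PARP2 bind DNA strand breaks and attach chains of ADP-ribose to themselves and nearby proteins, which recruits repair factors. Olaparib occupies their catalytic site and holds the enzymes on DNA, and replication forks that meet them need BRCA1-dependent homologous recombination for repair. Cells without this pathway are known to accumulate broken and unreplicated DNA, to activate cell cycle checkpoints and, in some settings, to switch on interferon-stimulated genes when DNA fragments reach the cytosol.

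The 6 libraries held 16177164 to 17571922 counts. Replicates differed by more than counting noise, the chi-square of their counts divided by its degrees of freedom lying between 3.6 and 13.5 over the pairs. Of 8 epithelial markers, 3 exceeded a mean of 1 CPM over the 6 libraries. KRT8 and KRT18 made up almost all of their summed level, 2662 to 2851 CPM (counts per TMM-scaled library, brought to the same total) in untreated and 2622 to 3032 CPM in treated libraries. KRT17 had 2.61, 3.77 and 3.27 CPM untreated and 2.72, 3.48 and 1.86 CPM at 24 h, while KRT5, KRT14, KRT19 and CDH1 reached at most 1.20 CPM, the latter value being that of CDH1. The defining epithelial marker EPCAM had 0, 0 and 0.0617 CPM untreated and no count at 24 h, so most of these markers were low or absent. Apart from KRT8 and KRT18, the markers thus did not bear out an epithelial line. The name HCC1937 was taken from the study, and the identity of the cells was not tested. The immune marker PTPRC had no count in any of the 6 libraries, and the summed immune markers reached at most 2.28 CPM. Summed fibroblast markers, mostly COL1A1, ranged from 95.5 to 116 CPM untreated and from 135 to 151 CPM at 24 h. In bulk RNA, fewer cells of one kind and less RNA per cell cannot be told apart.

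The largest pattern in the comparison followed base composition. Transcripts rich in G and C were higher after 24 h and transcripts poor in them were lower. Among 13421 genes with a mean of at least 1 CPM, the median log2 fold change ran from -0.29 in the tenth with the lowest GC content (median 37.5% of exonic bases) to 0.41 in the tenth with the highest (median 63.7%). Spearman's rho between log2 fold change and GC content was 0.57 across these genes, which share their libraries and are not independent replicates. GC content described 28.2% of the variance of the log2 fold changes, and GC content with the summed exonic length described 31.1%. Long genes lay lower: from the tenth with the shortest representative transcripts (median 742 bases) to that with the longest (median 8782 bases) the median log2 fold change went from 0.22 to -0.26.

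**Figure D1:**
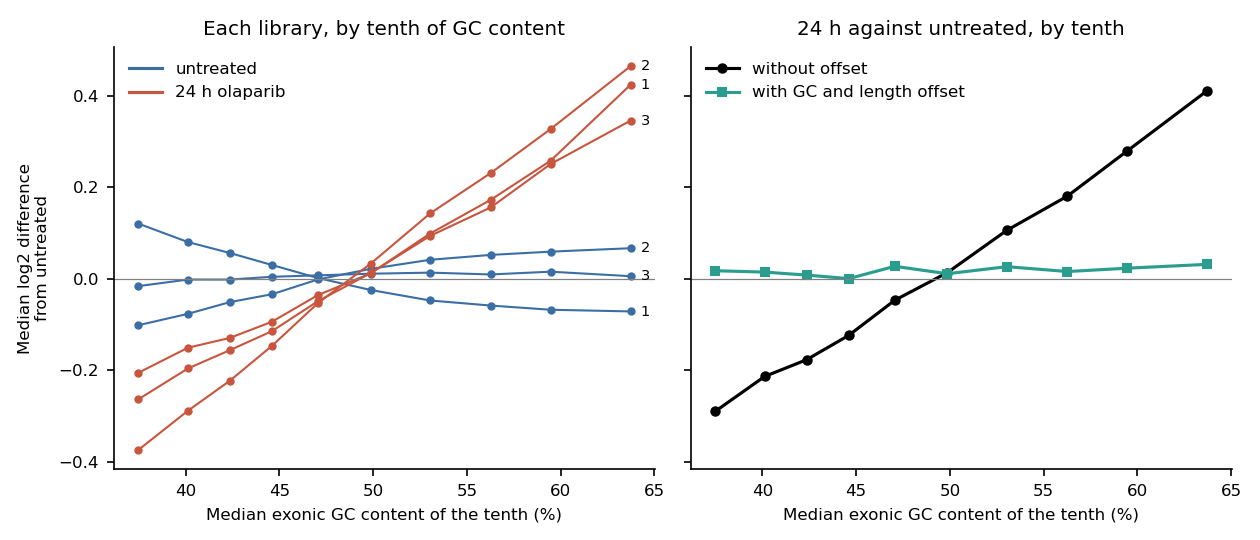
Left, the median log2 difference from the untreated mean (y axis) in 10 equal bins of genes by GC content (x axis, median exonic GC content in percent), 1 line per library with its replicate number; right, the median log2 fold change at 24 h against untreated in the same bins without and with the offset. All 3 treated libraries climb with GC content, and the fold change runs from -0.29 to 0.41 without the offset and stays near 0 with it.

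The same property separated the single libraries. In each library the log2 deviation from the mean of the line was regressed on GC content. The slopes per 10 percentage points of GC content were -0.204, -0.0642 and -0.122 in the 3 untreated libraries and 0.0893, 0.184 and 0.0994 in the 3 libraries at 24 h. The groups did not overlap (-0.130 ± 0.0701 against 0.124 ± 0.0518, SD, n = 3 each, exact two-sided permutation p = 0.1, the smallest that 3 against 3 can give). The 3 libraries at 12 h had slopes of -0.175, -0.0399 and 0.233, so replicates of 1 condition differed as much as the groups did. The mitochondrial share of counts moved the same way as the groups, at 8.33%, 7.10% and 7.66% untreated and 5.80%, 5.81% and 5.86% at 24 h (exact permutation p = 0.1). The part of these libraries' differences that is due to the drug was not tested.

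Counts were therefore tested with and without an offset that removes from each library its own smooth trend on GC content and exonic length. The offset removes such a trend whatever its origin. Without it, the quasi-likelihood test of edgeR (adjusted by Benjamini-Hochberg) called 1581 genes higher (8.62% of 18335 tested) and 939 lower (5.12%) at 24 h. With it, the same test called 1645 genes higher (9.1% of 18076) and 964 lower (5.33%). The totals were alike and the genes overlapped in part: 1074 of the higher and 530 of the lower genes were shared, and 916 genes were called without the offset alone and 1005 with it alone. No gene was called in opposite directions. In the tenth with the highest GC content, 34.1% of genes were called higher without the offset and 14.4% with it. In the tenth with the lowest, 12.0% were called lower without it and 3.87% with it.

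**Figure D2:**
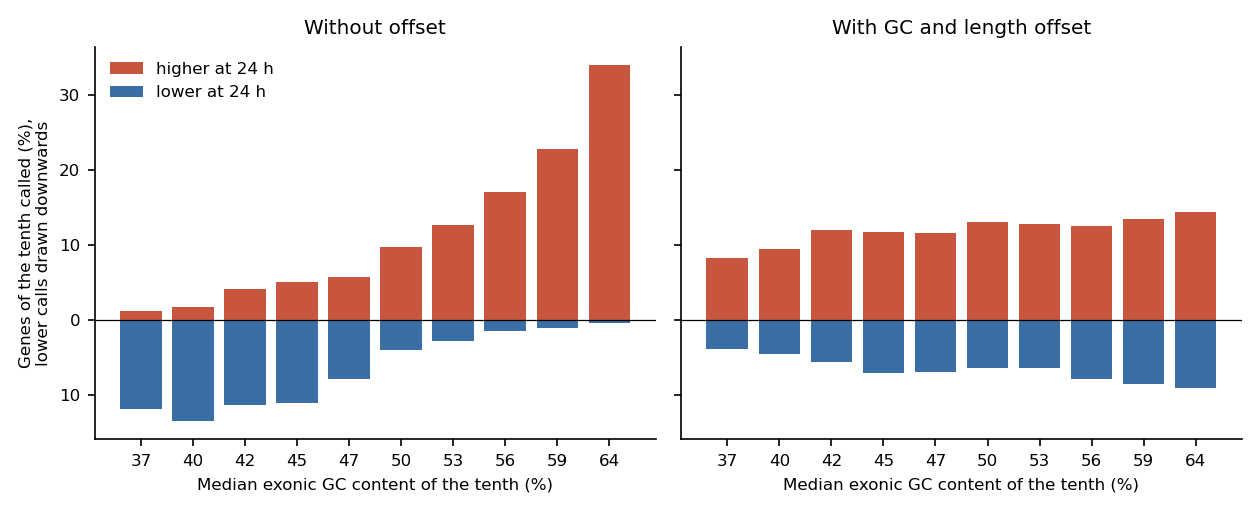
Percent of genes called higher or lower at 24 h (y axis) in 10 equal bins of genes by GC content (x axis), without and with the offset. Calls of higher genes reach 34.1% in the bin of highest GC content without the offset and 14.4% with it.

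The genes that the offset removed and those it added differed in composition. The 506 annotated genes called higher without the offset alone had a median GC content of 61.7%, and the 571 called higher with it alone had 42.9%. For the lower genes the order was turned, with 40.5% for the 407 annotated genes called without the offset alone and 58.3% for the 434 called with it alone. The biological coefficient of variation over all 18 libraries was 12.9% without the offset and 9.23% with it. The offset was fitted to each library's own deviations, so a smaller spread was built into it. Between replicates of the 6 compared libraries, the SD of the log2 differences ranged from 0.284 to 0.357 without it and from 0.280 to 0.340 with it. The trend with the length of the representative transcript was not fully removed by an offset fitted on summed exonic length (rho -0.35 before and -0.13 after). An offset fitted on the representative transcript instead, added after the data were seen, left a rho of -0.020 and called 1693 genes higher (9.37%) and 1000 lower (5.53%).

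The counts of calls depended on single libraries. Leaving out untreated replicate 1 left 334 higher and 128 lower genes without the offset. Leaving out untreated replicate 2 left 1020 and 529, untreated replicate 3 left 617 and 353, 24 h replicate 1 left 542 and 196, and 24 h replicate 2 left 541 and 167. Without 24 h replicate 3 the counts were 1384 and 843. With the offset the 6 counts of higher genes lay between 828 (without 24 h replicate 1) and 1655 (without 24 h replicate 3). The lower genes with the offset numbered 503 without 24 h replicate 1, 504 without untreated replicate 1, 506 without 24 h replicate 2 and 601 without untreated replicate 3.

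**Figure D3:**
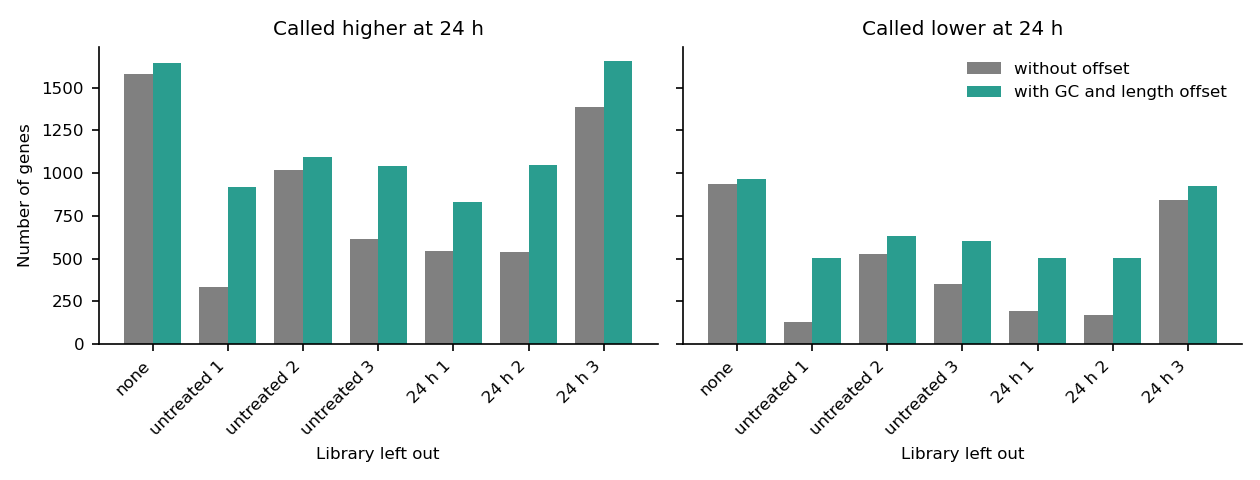
Number of genes called higher and lower (y axis) with no library left out and with each of the 6 left out in turn (x axis), without and with the offset. Without untreated replicate 1 the higher calls number 334 without the offset and 919 with it.

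Stretches of coding sequence show the composition at stake. Each line below holds 90 bases of 1 coding exon, read 5′ to 3′ on the gene's strand from the GENCODE 29 annotation of GRCh38, with every G and C in capitals. The genes are a GC-poor gene called higher in both fits, a GC-rich gene called lower in both fits, and 1 gene of each kind whose call was lost with the offset. The stretches are FANCD2 at chr3:10034696-10034785 (plus strand), FAM222A at chr12:109768021-109768110 (plus), JUND at chr19:18281275-18281364 (minus) and SF3B1 at chr2:197405312-197405401 (minus). These 4 genes were picked for display after their values were seen.
FANCD2: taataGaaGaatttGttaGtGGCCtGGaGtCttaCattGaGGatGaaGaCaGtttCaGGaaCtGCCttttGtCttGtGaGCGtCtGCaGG
FAM222A: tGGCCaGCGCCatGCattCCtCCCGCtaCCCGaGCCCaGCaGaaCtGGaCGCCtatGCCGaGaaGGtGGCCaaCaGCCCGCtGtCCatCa
JUND: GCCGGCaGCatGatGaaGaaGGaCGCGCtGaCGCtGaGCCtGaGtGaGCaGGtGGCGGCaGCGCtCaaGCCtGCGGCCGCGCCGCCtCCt
SF3B1: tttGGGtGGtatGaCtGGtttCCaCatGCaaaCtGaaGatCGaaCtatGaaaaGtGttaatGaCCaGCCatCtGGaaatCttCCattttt

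The 4 stretches hold 43.3%, 64.4%, 70.0% and 38.9% of G and C. FANCD2, whose protein is loaded onto DNA at stalled forks, had 90.2, 88.1 and 87.6 CPM untreated and 115, 114 and 114 CPM at 24 h. Every treated library was above every untreated one, and FANCD2 rose by 0.37 (SE 0.08, adjusted p = 0.00759) without the offset and 0.58 (SE 0.07, adjusted p = 1.62e-05) with it, on the log2 scale. FAM222A fell by 1.12 without and 1.51 with the offset, from 14.9 ± 1.77 to 6.84 ± 0.273 CPM (SD, n = 3). JUND, a member of the AP-1 transcription factor family, went from 59.5 ± 1.1 to 93.6 ± 17.5 CPM and was called higher without the offset (0.65, adjusted p = 0.00718) and not with it (0.08, adjusted p = 0.679). SF3B1, a core spliceosome subunit, went from 379 ± 17.7 to 289 ± 12.4 CPM and was called lower without the offset (-0.39, adjusted p = 0.0173) and not with it (-0.07, adjusted p = 0.555).

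The protein-coding genes with the largest changes past both tests, at 1 CPM or more and with no overlap between the groups, included proteins of the cell surface, the mitochondrion, translation and the cell cycle. Among the 10 with the largest rise, LGSN (chr6:63275951-63319977), which encodes lengsin, a relative of glutamine synthetase, had 6.03, 6.98 and 9.13 CPM untreated and 18.1, 16.1 and 20.1 CPM at 24 h. CRB1, an apical polarity protein, rose by 1.5 without and 1.85 with the offset, from 1.55 ± 0.482 to 4.38 ± 1.22 CPM. COX6A1, a subunit of cytochrome c oxidase, had 19.7, 33.7 and 29.8 CPM untreated and 107, 86.8 and 70.9 CPM at 24 h, a rise of 1.68 with the offset. NEDD8, the ubiquitin-like protein that activates cullin ligases, rose by 1.80 with the offset. SNHG32, a host gene of small nucleolar RNAs (chr6:31834608-31839766), had the largest log2 fold change of the set, 2.74 without and 2.65 with the offset. It had 1.18, 1.11 and 1.6 CPM untreated and 9.98, 6.31 and 9.88 CPM at 24 h. TOGARAM2 rose by 2.12 with the offset and IFI6 by 1.76.

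Among the 10 with the largest fall, EIF5A, the translation factor that helps ribosomes past difficult peptide bonds, was by far the most abundant. It had 399, 554 and 537 CPM untreated and 142, 201 and 153 CPM at 24 h, and fell by 1.58 without the offset (adjusted p = 0.000485) and 1.84 with it (adjusted p = 3.36e-05). Every treated library was below the lowest untreated one. TNC, the matrix protein tenascin C, had 2.98, 2.60 and 2.53 CPM untreated and 0.590, 1.06 and 1.08 CPM at 24 h. DKK1, a secreted inhibitor of Wnt receptors, fell by 1.30 with the offset, from 2.74 ± 0.421 to 1.09 ± 0.338 CPM. CCNE1, the cyclin that starts S phase with CDK2, fell from 19.96 ± 1.07 to 10.7 ± 0.911 CPM, by 0.90 without and 1.07 with the offset. The histone genes H2AC6 and H2BC21 fell by 1.12 and 1.08 with the offset. BSN, BCAN and UNC5C, known from neurons, fell by 1.30, 1.20 and 1.15 with it.

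Of these 20 genes, 11 kept their call without the offset and 16 with it when any of the 6 libraries was left out. Without the offset SNHG32 lost it without untreated replicate 1 (adjusted p = 0.06), TOGARAM2 without untreated replicate 3 (adjusted p = 0.0632) and 24 h replicate 2 (adjusted p = 0.0555), NEDD8 without untreated replicate 1 (adjusted p = 0.0805) and 24 h replicate 1 (adjusted p = 0.0569), BSN without 24 h replicate 1 (adjusted p = 0.0568) and BCAN without untreated replicate 1 (adjusted p = 0.0589) and 24 h replicate 1 (adjusted p = 0.0755). The other 4 lost it in both fits, and the values given for them here are with the offset. CACNA1G lost it without untreated replicate 1 (adjusted p = 0.124), without untreated replicate 2 (adjusted p = 0.114) and without 24 h replicate 2 (adjusted p = 0.129), KANK3 without untreated replicate 1 (adjusted p = 0.0591), untreated replicate 3 (adjusted p = 0.0719) and 24 h replicate 1 (adjusted p = 0.115), and UNC5C without untreated replicate 1 (adjusted p = 0.0967) and 24 h replicate 1 (adjusted p = 0.0845). GPS2 lost it without untreated replicates 1, 2 and 3 (adjusted p = 0.076, 0.0602 and 0.0683) and without 24 h replicate 1 (adjusted p = 0.0857). GPS2 (chr17:7311324-7315564, minus strand) shares 52.5% of its exonic bases with other genes and overlaps the end of EIF5A (chr17:7306999-7312463, plus strand). It went from 0.557 ± 0.0606 to 2.19 ± 0.415 CPM. KANK3 (chr19:8322584-8343262, minus) overlaps RPS28 (chr19:8321158-8323340, plus), which itself went from 90.4 ± 2.28 to 212 ± 20.7 CPM. SNHG32 shares 29.1% of its exonic bases with other genes on its own strand. NEDD8, COX6A1 and BCAN each share more than 10% with other genes on either strand. Whether the counting used strand is not given in the sources used here, so reads of overlapping genes cannot be told apart.

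**Figure D4:**
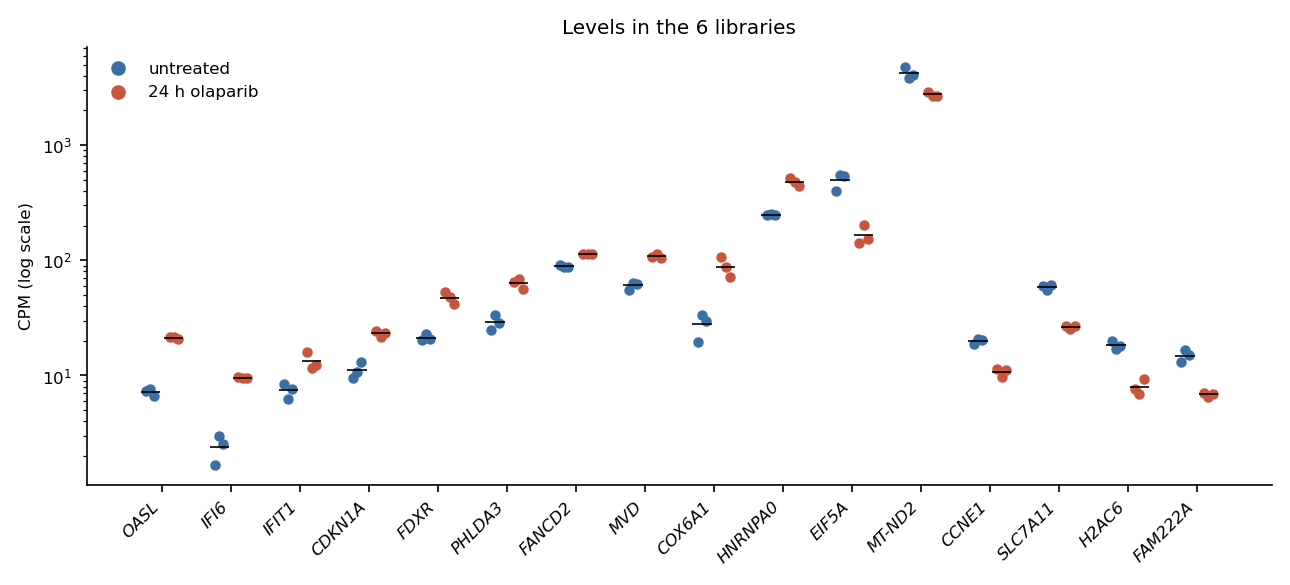
Level in CPM (y axis, log scale) of single genes in the 3 untreated and 3 treated libraries, each point 1 library and each line the mean of 3. In EIF5A the treated libraries lie between 142 and 201 CPM and the untreated between 399 and 554 CPM.

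Gene lists written from general knowledge were then read member by member. The counts stand against 8.62% higher and 5.12% lower over all genes without the offset, and 9.1% and 5.33% with it. Protein-coding genes with a mean of at least 1 CPM are nearer in kind to most lists. Their shares were 12.5% higher and 6.75% lower without the offset, and 13.2% and 6.80% with it. Of all 106 genes named by rule, 30 were called in each of the 6 fits with a library left out without the offset and 51 with it. Genes named beyond the 2 with the largest rise and the 2 with the largest fall of a list were chosen after their values were seen.

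**Figure D5:**
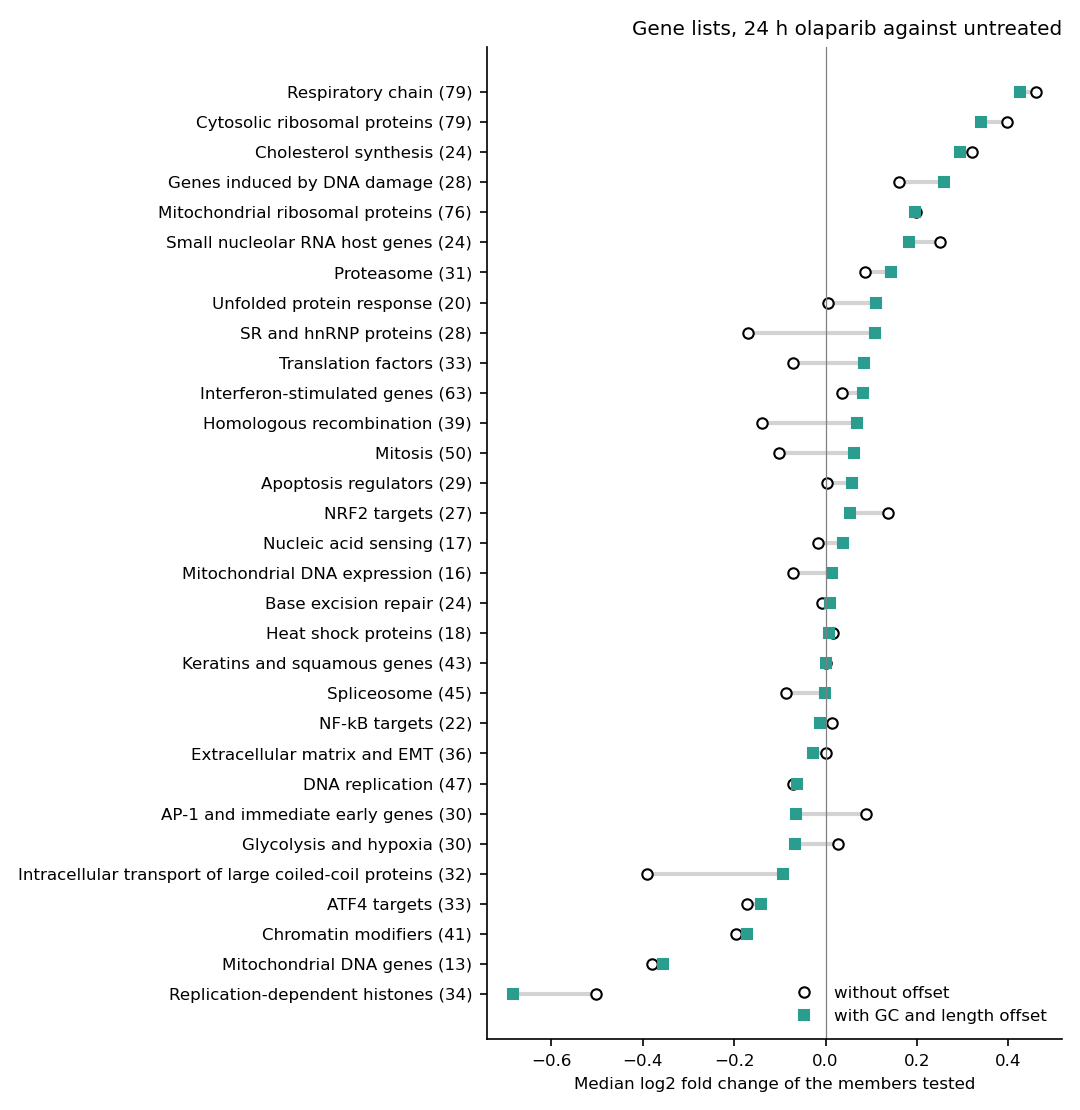
Median log2 fold change at 24 h against untreated (x axis) over the tested members of each list (rows, number of members in parentheses), without the offset (open circles) and with it (squares). The respiratory chain lies highest, at 0.46 and 0.42, and the histones lowest, at -0.50 and -0.68.

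A subset of interferon-stimulated genes rose while most of the list did not pass the test. Of 63 tested members, 12 were called higher and 4 lower without the offset (median 0.04), and 10 higher and 3 lower with it (median 0.08). With a library left out there were 7 to 10 higher and 0 to 4 lower without the offset and 7 to 11 and 1 to 4 with it, with 7 higher in each fit without untreated replicate 1, untreated replicate 3 or 24 h replicate 1. Genes called higher in both fits numbered 9, namely IFI6, OASL, IFIT2, IFI44, IFIT1, IFIT3, IFITM1, ISG15 and BST2. OASL, a relative of the oligoadenylate synthetases that binds nucleic acid, had 7.33, 7.60 and 6.66 CPM untreated and 21.5, 21.6 and 20.7 CPM at 24 h. The groups were far apart, at 1.56 (SE 0.12, adjusted p = 3.33e-07) without and 1.49 (SE 0.09, adjusted p = 3.44e-09) with the offset. IFI6, a mitochondrial protein that protects from apoptosis, had 1.68, 2.97 and 2.53 CPM untreated and 9.62, 9.55 and 9.47 CPM at 24 h. IFIT2, which binds viral and cellular RNA, had 6.77, 5.62 and 5.12 CPM untreated and 13.2, 13.6 and 12.3 CPM at 24 h. IFIT1, which binds RNA without a methylated cap, rose by 1.0 with the offset and IFI44 by 1.05. ISG15, a ubiquitin-like modifier, rose by 0.86 without and 0.43 with the offset, and with the offset 1 of the 6 fits with a library left out still called it.

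Other members of the same list moved down or stayed below the threshold. EIF2AK2, the kinase PKR that senses double-stranded RNA, went from 181 ± 8.71 to 125 ± 14.5 CPM and was called lower without the offset (-0.53, adjusted p = 0.0328) and not with it (-0.19, adjusted p = 0.0529). Among the fits without the offset and with a library left out, EIF2AK2 kept its call only without 24 h replicate 3 (adjusted p = 0.0281). TRIM14 and PARP12 were called lower in both fits, at -0.41 and -0.31 with the offset. Of 17 sensors and adaptors of cytosolic nucleic acid, 1 was called higher without the offset, the transcription factor IRF3, and 2 with it. IRF3 had 72.2, 77.1 and 78.2 CPM untreated and 110, 112 and 99.9 CPM at 24 h, with an adjusted p of 0.0488 without the offset and 0.0803 with it. Its call was lost when any of the 6 libraries was left out. MAVS, the mitochondrial adaptor of RNA sensors, had 153 ± 7.68 CPM untreated and 151 ± 15.2 CPM at 24 h (-0.02, adjusted p = 0.975). The 22 tested NF-kB targets, 13 of them at a mean of 1 CPM or more, held 1 called higher, TNFAIP3 (0.43 without and 0.44 with the offset). They held 1 called lower, BIRC3 (-0.87 and -0.54). Without the offset the call of TNFAIP3 was lost when any of the 6 libraries was left out. That of BIRC3 was lost without untreated replicate 1 (adjusted p = 0.0949) or 24 h replicate 2 (adjusted p = 0.0752).

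The promoters of 3 of the rising genes are shown because they hold matches to the interferon-stimulated response element, searched as GAAANNGAAA on both strands with overlapping matches of the same motif allowed. The sequences come from RefSeq (GRCh38.p14) and run from 250 bases before to 50 after the start of the gene on its own strand, with matches in capitals. IFI6 lies at chr1:27672143-27672442 (minus strand), IFI44 at chr1:78649581-78649880 (plus) and IFIT1 at chr10:89392373-89392672 (plus).
IFI6: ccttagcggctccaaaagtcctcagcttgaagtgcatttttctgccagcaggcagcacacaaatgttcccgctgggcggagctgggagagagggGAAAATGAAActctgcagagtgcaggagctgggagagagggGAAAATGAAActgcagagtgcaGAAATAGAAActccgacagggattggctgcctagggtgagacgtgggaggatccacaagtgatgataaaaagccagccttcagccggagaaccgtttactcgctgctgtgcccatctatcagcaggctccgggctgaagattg
IFI44: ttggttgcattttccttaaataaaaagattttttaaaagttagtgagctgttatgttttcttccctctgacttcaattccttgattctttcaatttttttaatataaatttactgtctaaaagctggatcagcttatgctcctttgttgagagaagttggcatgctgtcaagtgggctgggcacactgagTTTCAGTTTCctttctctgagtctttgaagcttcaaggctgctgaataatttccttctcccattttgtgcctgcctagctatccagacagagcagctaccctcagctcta
IFIT1: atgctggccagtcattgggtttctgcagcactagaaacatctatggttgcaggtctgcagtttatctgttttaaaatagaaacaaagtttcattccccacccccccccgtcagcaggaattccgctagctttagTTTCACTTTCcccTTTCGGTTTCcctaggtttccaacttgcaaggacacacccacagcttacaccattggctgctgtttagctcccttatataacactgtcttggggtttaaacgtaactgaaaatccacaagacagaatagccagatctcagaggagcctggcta

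IFI6 holds 3 matches, IFI44 holds 1 and IFIT1 holds 2. Each gene was represented by its promoter of this length with the most matches. The motif was present in 4.38% of all 27305 genes with an entry and in 33 of the 49 tested interferon-stimulated genes with an entry (67.3%). It was found in 7 of 7 matched members called higher in both fits, in 5 of 5 called lower in either fit and in 19 of 34 that passed neither. A match is a description of the letters and not a site of binding.

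Some genes of a list known to be induced by DNA damage rose. Of 28 tested genes of this list, 11 were called higher and 0 lower without the offset (median 0.16), and 13 higher and 1 lower, PLK3, with it (median 0.26). By DESeq2 1 was lower, and 2 were lower at an unadjusted p under 0.05 without the offset. With a library left out, 11 to 13 members were higher with the offset and 7 to 10 without it, the 7 being without untreated replicate 1. FDXR, which feeds electrons to mitochondrial cytochromes, had 20.5, 22.9 and 20.7 CPM untreated and 52.8, 48.5 and 41.4 CPM at 24 h. It rose by 1.16 (SE 0.20) without and 0.85 (SE 0.13, adjusted p = 0.000198) with the offset. PHLDA3, an inhibitor of AKT signalling, rose by 1.13 and 0.84, from 28.9 ± 4.29 to 63.2 ± 6.51 CPM. CDKN1A, the cyclin-dependent kinase inhibitor p21, had 9.44, 10.8 and 13.1 CPM untreated and 24.6, 21.8 and 23.6 CPM at 24 h. The groups were separate in each of these genes. BTG2, an antiproliferative factor, rose by 0.58 with the offset. BBC3, the pro-apoptotic protein PUMA, rose by 0.94 without and 0.52 with the offset. CCNG1, a cyclin with 37.3% GC, passed only with the offset, at 0.38. Of 29 apoptosis regulators, 6 were called higher and 2 lower without the offset and 5 and 2 with it. With a library left out, 2 or 3 were higher and 0 to 3 lower without the offset, and 2 to 5 and 1 or 2 with it. BAX, the pore-forming executioner, was called higher without the offset (0.58) and not with it (0.22), and CASP2 was called lower in both (-0.45 and -0.26). The call of BAX was lost when any of the 6 libraries was left out.

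DNA repair genes were called in both directions. Of 39 tested genes of homologous recombination and the Fanconi pathway, 3 were called higher and 2 lower without the offset. These shares lay near those over all genes (8.62% and 5.12%). They lay below those over protein-coding genes with a mean of at least 1 CPM (12.5% and 6.75%). With the offset 8 were called higher and 4 lower. With a library left out, 1 or 2 were higher and 0 to 3 lower without the offset, and 3 to 6 higher and 2 or 3 lower with it, the fewest higher without untreated replicate 3. The median changed from -0.14 to 0.07, and the list's median GC content was 41.5%. FANCD2 rose in both fits. RAD52, which anneals single strands, fell by 0.42 without and 0.45 with the offset, from 24.5 ± 0.596 to 18.2 ± 1.79 CPM. RBBP8, the end resection factor CtIP, fell by 0.57 and 0.39, and 1 of the 6 fits with a library left out called it with the offset and none without it. POLQ, the polymerase of microhomology-mediated end joining, had 51.6 ± 2.86 and 55.9 ± 7.09 CPM and passed with the offset alone (0.38, adjusted p = 0.00149). BRCA1 had 126, 111 and 117 CPM untreated and 90.9, 93.1 and 99.5 CPM at 24 h. The groups did not overlap, at -0.32 (adjusted p = 0.064) without and -0.09 (adjusted p = 0.317) with the offset. The drug's targets did not pass the test: PARP1 had 612 ± 13.1 and 560 ± 22.2 CPM (-0.13, adjusted p = 0.256) and PARP2 had 35.8 ± 1.47 and 36.3 ± 2.71 CPM (0.02, adjusted p = 0.974). Of 24 genes of base excision repair, 1 was called higher without the offset, NTHL1 (0.74), and with it 1 was called higher, POLB (0.37), and 1 lower, UNG (-0.24). With a library left out, NTHL1 kept its call only without 24 h replicate 3 (adjusted p = 0.0284).

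Genes of DNA replication were called in both directions. Of 47 replication genes, 6 were called higher and 9 lower without the offset, and 5 higher and 12 lower with it. The higher shares lay near those over protein-coding genes with a mean of at least 1 CPM (12.5% without and 13.2% with the offset). The lower shares lay above theirs (6.75% and 6.80%). With a library left out there were 0 to 5 higher and 4 to 7 lower without the offset, the fewest without untreated replicate 1, and 3 to 6 higher and 8 to 11 lower with it. The E cyclins led the fall: CCNE2 had 22.7, 18.2 and 19.98 CPM untreated and 11.8, 11.4 and 12.7 CPM at 24 h, and fell by 0.76 without and 0.55 with the offset. Subunits of the MCM helicase, which unwinds origins, fell as well. MCM5 went from 220.3 ± 9.6 to 159 ± 4.87 CPM (-0.47 without and -0.55 with the offset) and MCM4 from 621 ± 9.63 to 469 ± 10.3 CPM (-0.41 and -0.32). MCM2 and MCM3 passed with the offset alone, at -0.30 and -0.24. TK1, the thymidine kinase of S phase, rose by 0.76 without and 0.36 with the offset, and ORC6 and RPA3 rose by 0.44 and 0.63 with it.

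Histone genes were the list with the lowest median. Of 51 genes, 34 passed the filter on low counts. Of these 34, 0 were called higher and 8 lower without the offset (median -0.50), and 1 higher, H3C8, and 7 lower with it (median -0.68). Without adjustment (p under 0.05), 1 was higher and 14 lower without the offset, and DESeq2 called 1 higher and 9 lower. Without the offset the lower calls numbered 3 without untreated replicate 1, 4 without untreated replicate 2 or 3, and 5 without 24 h replicate 1 or 2, and with it they numbered 5 to 8 over the 6 fits. H2AC6 had 20.001, 16.8 and 18.01 CPM untreated and 7.56, 6.96 and 9.29 CPM at 24 h, a fall of 1.20 (adjusted p = 7.93e-06) without and 1.12 (adjusted p = 1.04e-05) with the offset. H2BC12 fell by 0.49 and 0.85. Many histone mRNAs lack a poly(A) tail, so their levels also depend on how RNA was selected, and histone genes are near-identical copies between which reads may be split.

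Genes of mitosis were called in both directions. Of 50, 5 were called higher and 5 lower without the offset (median -0.10), and 13 higher and 6 lower with it (median 0.06). Without the offset these shares lay near those over protein-coding genes with a mean of at least 1 CPM (12.5% and 6.75%). With it they lay above them (13.2% and 6.80%). With a library left out there were 2 to 5 higher and 2 to 5 lower without the offset, the fewest without untreated replicate 1, and 9 to 13 higher and 5 to 6 lower with it. MKI67, the proliferation antigen, had 353, 329 and 347 CPM untreated and 181, 214 and 243 CPM at 24 h, and fell by 0.69 without and 0.53 with the offset. CENPE, a kinetochore motor, fell by 0.93 and 0.53, and KIF20A, a motor of cytokinesis, by 0.54 and 0.52. AURKB, the kinase of the chromosomal passenger complex, rose by 0.59 and 0.34, and its partner BIRC5 by 0.41 and 0.37. CDK1, the kinase that drives entry into mitosis (34.8% GC), had 81.2 ± 10.4 and 99.9 ± 14.4 CPM and passed with the offset alone (0.58, adjusted p = 2.73e-05, against 0.30 and 0.13 without it). The checkpoint genes MAD2L1 and BUB3 likewise passed with the offset alone, at 0.48 and 0.47.

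Many nuclear-encoded subunits of the respiratory chain rose, and several subunits encoded in mitochondrial DNA fell. Of 79 nuclear subunits, 43 were called higher and 0 lower without the offset (median 0.46), and 46 higher and 0 lower with it (median 0.42). DESeq2 called 47 higher and 0 lower, and at an unadjusted p under 0.05 edgeR had 0 lower without the offset and 1 with it. All 5 complexes held risen members without the offset: 18 of 37 subunits of complex I, 2 of 4 of complex II, 6 of 9 of complex III, 8 of 11 of complex IV and 9 of 18 of complex V. NDUFA1 of complex I had 20.1, 37.3 and 31.5 CPM untreated and 98.3, 94.9 and 79.8 CPM at 24 h. UQCR10 of complex III, which overlaps no other gene's exons, had 18.1, 21.2 and 17.6 CPM untreated and 56.0, 43.7 and 36.6 CPM at 24 h. It rose by 1.26 without and 1.21 with the offset. ATP5MC3, a subunit of the proton ring of ATP synthase with 40.8% GC, rose by 0.77 and 1.0. The median log2 deviation of the list from the untreated mean was 0.62, 0.44 and 0.33 in the 3 treated libraries. Leaving out untreated replicate 1 reduced the count of higher members to 9 without the offset and 24 with it, and leaving out 24 h replicate 1 reduced it to 15 and 20. It was 25 and 32 without untreated replicate 2, 19 and 33 without untreated replicate 3, and 20 and 33 without 24 h replicate 2. Over all 6 fits with a library left out, the list's median lay between 0.39 and 0.52 without the offset and between 0.36 and 0.49 with it. More than 10% of the exonic bases of 31 of the 79 members overlap another gene.

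Of the 13 protein genes of mitochondrial DNA, 5 were called lower and 0 higher without the offset (median -0.38), 7 and 0 with it (median -0.36), and 9 and 0 with the offset on representative transcripts. At an unadjusted p under 0.05, 0 were higher in either fit, and DESeq2 called 5 lower and 0 higher. Without the offset the 5 lower calls became 1 without untreated replicate 1 and 3 without 24 h replicate 1 or 2, and with it the 7 became 4 without untreated replicate 1 or 24 h replicate 1. MT-CO1, a subunit of cytochrome c oxidase, had 25768, 21031 and 23790 CPM untreated and 16711, 16790 and 16963 CPM at 24 h. It fell by 0.48 in both fits, with adjusted p = 0.011 without and 0.00299 with the offset. MT-ND4L fell by 0.98 and 0.92, from 3048 ± 219 to 1542 ± 380 CPM. MT-CYB fell by 0.43 and 0.42. Of the 16 tested nuclear genes that transcribe and process mitochondrial RNA, none was called without the offset by edgeR's quasi-likelihood test, and LRPPRC was called higher with it (0.19). DESeq2 called 1 lower, and edgeR's unadjusted p was under 0.05 for 2 higher and 2 lower genes without the offset.

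Many ribosomal protein genes rose. Of 79 cytosolic ribosomal proteins, 40 were called higher and 0 lower without the offset (median 0.40), and 43 and 0 with it (median 0.34). At an unadjusted p under 0.05, 0 were lower without the offset and 1 with it, and DESeq2 called 44 higher and 0 lower. RPLP1, a protein of the ribosome's stalk, had 794, 879 and 874 CPM untreated and 1820, 1623 and 1405 CPM at 24 h. RPL41 rose by 0.86 without and 0.84 with the offset, and RPL26 by 1.39 and 1.41. Without untreated replicate 1 the count of higher members was 3 without the offset and 25 with it, without untreated replicate 2 it was 25 and 29, without untreated replicate 3 it was 17 and 31, without 24 h replicate 1 it was 7 and 21, and without 24 h replicate 2 it was 14 and 30. Ribosomal protein genes have many processed pseudogenes, and reads may be split among them. Of 76 mitochondrial ribosomal proteins, 18 were called higher and 3 lower without the offset, and 19 and 4 with it. The higher calls numbered 1 without untreated replicate 1, 6 without untreated replicate 3, 4 without 24 h replicate 1 and 4 without 24 h replicate 2 in the fits without the offset. With it they numbered 8 without untreated replicate 1, 7 without 24 h replicate 1 and 10 without 24 h replicate 2. The lower calls numbered at most 1 without the offset and 1 to 3 with it when any library was left out. Representative transcripts of the cytosolic list have a median of 1004 bases, and of the nuclear respiratory list 1039 bases, against 2650 bases over all tested genes. Of 33 translation factors, EIF5A included, 2 were called higher and 2 lower without the offset and 4 and 3 with it.

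Host genes carry small nucleolar RNAs, which guide the modification of ribosomal RNA, in their introns. Of 24, 6 were called higher and 1 lower without the offset, and 7 and 1 with it. SNHG8 had 20.001, 15.1 and 19.6 CPM untreated and 44.3, 38.3 and 28.0 CPM at 24 h. SNHG29 rose by 0.61 without and 0.54 with the offset and SNHG12 by 0.64 and 0.60. SNHG4 fell by 0.67 and 0.53, from 87.2 ± 6.91 to 54.9 ± 2.01 CPM.

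Many genes of cholesterol synthesis rose. Of 24, 10 were called higher and 0 lower without the offset (median 0.32), and 13 and 0 with it (median 0.29). At an unadjusted p under 0.05, 2 were lower without the offset and 1 with it, and DESeq2 called 1 lower. MVD, which makes isopentenyl pyrophosphate, had 55.7, 63.4 and 62.4 CPM untreated and 108, 114 and 106 CPM at 24 h. It rose by 0.85 (SE 0.19) without and 0.53 (SE 0.10) with the offset. PMVK, the enzyme before it, rose by 0.84 and 0.52 and FDPS, the enzyme of farnesyl pyrophosphate, by 0.45 and 0.29. HMGCS1, an early enzyme with 41.2% GC, passed with the offset alone (0.32). The count with the offset lay between 9 and 12 when a library was left out, and without the offset it was 0 without untreated replicate 1, 6 without untreated replicate 2, 4 without untreated replicate 3, 5 without 24 h replicate 1 and 2 without 24 h replicate 2.

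Several targets of the stress factor ATF4, which drives amino acid transport and synthesis, fell. Of 33, 1 was called higher and 7 lower without the offset (median -0.17), and 0 higher and 9 lower with it (median -0.14). The unadjusted p was under 0.05 for 2 higher members with the offset, and DESeq2 without it called 3 higher and 11 lower. Without the offset the 7 lower calls became 2 without untreated replicate 1, untreated replicate 3 or 24 h replicate 2, 3 without untreated replicate 2, and 4 without 24 h replicate 1 or 3. With it there were 8 or 9. The 1 called higher without the offset, CEBPB, had a value of 0.42 without and -0.08 with it. SLC7A11, the cystine transporter, had 59.5, 54.7 and 60.8 CPM untreated and 27.0, 25.2 and 26.7 CPM at 24 h. It fell by 1.15 (SE 0.16, adjusted p = 0.000485) without and 0.76 (SE 0.09, adjusted p = 1.18e-05) with the offset. CHAC1, which degrades glutathione (62.7% GC), went from 28.8 ± 2.94 to 20.2 ± 1.76 CPM and passed with the offset alone (-0.92, against -0.51 and adjusted p = 0.0632 without it). DDIT3, the factor CHOP, fell by 0.66 and 0.72. GARS1, a tRNA synthetase, fell by 0.37 and 0.27. TRIB3 passed with the offset alone (-0.50).

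Other stress lists, apart from the unfolded protein response, held calls in both directions in at least 1 of the 2 edgeR fits. Of 20 genes of the unfolded protein response, 4 were called higher without the offset and 3 with it, none lower in edgeR's quasi-likelihood test, 1 lower at an unadjusted p under 0.05 in each fit and 1 lower by DESeq2. With a library left out, 0 to 5 of them were higher without the offset, 0 being without untreated replicate 1 or 24 h replicate 1. With the offset 1 to 4 were higher and at most 1 lower. SDF2L1, an endoplasmic reticulum chaperone cofactor, led the rise (1.09 and 0.63). Of 18 heat shock genes, 4 were called higher and 3 lower in each fit. HSP90AA1, the inducible cytosolic HSP90, had 3607, 3292 and 3525 CPM untreated and 2437, 2201 and 2201 CPM at 24 h. DNAJB1, a co-chaperone of HSP70, rose from 144 ± 1.76 to 215 ± 6.37 CPM (0.58 and 0.39). Of 27 targets of the oxidative stress factor NRF2, 6 were called higher and 2 lower without the offset and 3 and 2 with it. SLC7A11 is also on this list, and the other fallen member, ABCC2, a transporter of conjugated drugs, went from 313 ± 6.18 to 222 ± 20.5 CPM. Of 31 proteasome subunits, 2 were called higher and 0 lower without the offset (3 lower at an unadjusted p under 0.05, and 1 by DESeq2) and 4 and 1 with it. Of 30 genes of glycolysis and hypoxia, 3 were called higher and 1 lower without the offset and 3 and 4 with it. With a library left out, the higher calls without the offset numbered 1 to 3 for heat shock genes and 0 to 5 for NRF2 targets. They numbered 0 to 3 for the proteasome and 0 to 2 for glycolysis and hypoxia.

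The medians of 2 lists moved furthest between the fits. Large coiled-coil, centrosomal and nuclear pore proteins (median 41.2% GC, median transcript 7954 bases) had a median log2 fold change of -0.39 without the offset and -0.09 with it, with 8 and then 3 of 32 called lower. With a library left out the lower calls ranged from 1 to 10 without the offset and from 0 to 3 with it. The lowest count without the offset, 1, came without untreated replicate 1, 24 h replicate 1 or 24 h replicate 2. CEP290, a centrosomal protein, was called lower without the offset (-0.74) and not with it (-0.31), while the nuclear pore protein NUP153 fell in both (-0.49 and -0.35). Among the fits with a library left out, CEP290 kept its call only without untreated replicate 2 (adjusted p = 0.0447). The 28 SR and hnRNP splicing proteins had a median of -0.17 without and 0.11 with the offset, and -0.01 with the offset on representative transcripts. HNRNPA0 had 246, 254 and 246 CPM untreated and 514, 480 and 440 CPM at 24 h, a rise of 0.94 without and 1.21 with the offset. SRSF3 rose by 0.42 and 0.68, and SRSF1 fell by 0.55 and 0.43. Of 45 core spliceosome genes, 2 were called higher and 5 lower without the offset and 3 and 5 with it. With a library left out there were 0 to 2 higher and 1 to 3 lower without the offset.

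Several chromatin modifiers fell. Of 41, 0 were called higher and 8 lower without the offset (median -0.20), and 3 higher and 15 lower with it (median -0.17). At an unadjusted p under 0.05, 3 were higher without the offset, and DESeq2 called 1 higher and 11 lower. KMT2A, a histone H3 lysine methyltransferase, had 157, 157 and 158 CPM untreated and 78.5, 100.3 and 113 CPM at 24 h. It fell by 0.70 without and 0.41 with the offset. SETD1B, of the same enzyme family and with 61.3% GC, passed with the offset alone (-0.53). Without the offset the 8 lower calls became 2 without untreated replicate 1, 24 h replicate 1 or 24 h replicate 2, 3 without untreated replicate 3 and 4 without untreated replicate 2. With the offset, leaving out untreated replicate 3 took the count of lower members to 5, 24 h replicate 1 to 6, 24 h replicate 2 to 7, untreated replicate 1 or 2 to 8, and 24 h replicate 3 to 17.

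AP-1 and other immediate early genes (median 55.2% GC) had 3 higher and 2 lower of 30 without the offset and 1 higher and 6 lower with it. JUN rose in both fits, by 0.55 and 0.33, and ETV5, a factor induced by ERK signalling, fell by 0.59 and 0.53. MYC had 604 ± 13.4 and 578 ± 12.9 CPM and was called lower with the offset alone (-0.25). Of 43 keratin and squamous genes, 5 were called higher and 1 lower without the offset and 1 and 2 with it, and KRT80, a type II keratin, fell in both (-0.44 and -0.63). With a library left out the higher calls of this list ranged from 0 to 5 without the offset, 0 being without untreated replicate 1. Of 36 genes of the extracellular matrix and epithelial-mesenchymal transition, 5 were called higher and 6 lower without the offset and 5 and 5 with it. With a library left out there were 2 to 4 higher and 1 to 5 lower without the offset. The basement membrane collagen gene COL4A2 rose by 0.45 and 0.61 and COL5A1 by 0.51 and 0.37.

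The libraries at 12 h were compared with the same 3 untreated libraries, so the values at the 2 times are given side by side only. With the offset, the median log2 fold change of the nuclear respiratory chain was 0.31 at 12 h and 0.42 at 24 h, that of cytosolic ribosomal proteins 0.23 and 0.34, and that of the mitochondrial DNA genes -0.31 and -0.36. Cholesterol synthesis had 0.02 at 12 h and 0.29 at 24 h, genes induced by DNA damage 0.09 and 0.26, and ATF4 targets 0.10 and -0.14.

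Chromosome medians stood apart without the offset and most lay near 0 with it. The median log2 fold change of genes on chromosome 19, which is rich in GC, was 0.24 without the offset and 0.02 with it, and 224 and then 122 of its 942 genes were called higher. Chromosome 18, poor in GC, had -0.16 and -0.01, and chromosomes 4 and 13 had -0.15 and 0.00 each. The mitochondrial chromosome had -0.29 and -0.23.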

How the data were processed

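Total RNA libraries of HCC1937 cells were made with a NEBNext Ultra II kit. Per the submitters' processing notes, the authors used HISAT2, featureCounts and DESeq2 with GRCh38, and deposited raw counts per gene for 18 libraries. Versions, strand setting and annotation release are not given in the sources used here. Each of the 18 single-library tables equalled its column of the joint table. Members and gene lists were chosen with earlier results of these data known.

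Groups came from sample titles. Counts were tested with edgeR 4.0.16 in R 4.3.3 (TMM, filterByExpr by condition, quasi-likelihood test, 1 mean per condition over all 18 libraries, Benjamini-Hochberg adjustment, called under 0.05). Per-library CPM use TMM-scaled library sizes. Log2 CPM and the trends of each library use a prior count of 2, and fold changes use the default prior count of edgeR's fit. Identifiers were matched without version to GENCODE 29: 33888 of 35044 (96.7%) had GC content and length. The offset was a natural spline (6 degrees of freedom per property) of each library's log2 deviation from its line's mean on GC content and log2 exonic length, fitted on genes of at least 1 CPM. A second offset used a representative transcript (best APPRIS rank, then longest). Scripts were tested on simulated data. Permutation tests were exact and two-sided. Total counts of the 6 compared libraries lay between 16177164 and 17571922, and 975 tested genes had no count in them.

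The genes named were the 10 largest rises and 10 largest falls with the offset among protein-coding genes called in both fits, at 1 CPM or more, with no overlap between groups. To these were added up to 2 rises and 2 falls per list without the offset, and BRCA1, PARP1, PARP2, IRF3, MAVS and SF3B1. Some genes that the rule or the lists include are not reported here. Alternatives were DESeq2 1.42.0, other filters and scalings, other sets of libraries, the replicate number as a block, fold-change limits and each library left out. No set tests were run. The 12 h libraries and the BRCA1 line served for side-by-side values and for the interaction contrast.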

Additional observations from a re-analysis of the deposited data

Results flagged for a closer look

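The effect of 24 h of olaparib was compared between the empty-vector line and the line overexpressing BRCA1, whose untreated libraries are its own, by the interaction contrast of edgeR's quasi-likelihood test. The effects of 3554 of 18335 genes (19.4%) differed, 2058 of them higher and 1496 lower in the empty-vector line. Of the 20 genes with the largest changes, 16 differed between the lines, each with an adjusted p under the threshold, and are given here as the effect in the empty-vector line minus that in the BRCA1 line on the log2 scale, without the offset. These genes were chosen for their change in the empty-vector line, which is 1 side of this difference, so the count is a description.

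Among the genes that rose, the difference was 3.88 for SNHG32, 2.31 for COX6A1, 2.16 for GPS2, 2.13 for CRB1, 2.13 for NEDD8 and 1.56 for IFI6. Among the genes that fell, it was -1.86 for UNC5C, -1.67 for BCAN, -1.62 for TNC, -1.56 for EIF5A, -1.40 for DKK1, -1.25 for BSN, -1.10 for CCNE1, -0.90 for FAM222A, -0.83 for H2AC6 and -0.66 for H2BC21. With the GC and length offset 15 of the 20 differed: GPS2 no longer passed (1.81, adjusted p = 0.0606), and the difference for FAM222A was -1.52. SNHG32 varied among untreated libraries of the BRCA1 line, with 1.11, 7.08 and 12.2 CPM, and its effect there was -1.14 (adjusted p = 0.241). NEDD8 varied there from 3.69 to 18.7 CPM and GPS2 from 0.678 to 2.16 CPM. Some genes also differed in level between the untreated lines. IFI6 had 364 to 807 CPM in the BRCA1 line and 1.68 to 2.97 CPM in the empty-vector line. TNC had 200.4 to 273 against 2.53 to 2.98 CPM, and H2AC6 90.3 to 95.3 against 16.8 to 20.001 CPM. EIF5A, CRB1 and BCAN were lower in the BRCA1 line, EIF5A at 200.1 to 335 against 399 to 554 CPM. CCNE1 overlapped between the lines. The GC slopes of the untreated BRCA1 libraries were -0.192, 0.110 and 0.165 per 10 percentage points. Those at 24 h were -0.0626, -0.0993 and -0.141. The part of these slopes and of the untreated levels in the differences between the effects was not tested.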

How the results depend on the processing

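The counts of 1581 higher and 939 lower genes stayed within 1.5 times under DESeq2 size factors (1562 and 946), no filter (1923 and 1149), a minimum of 10 counts (1700 and 1161), the 9 empty-vector libraries (1611 and 1008), a GC offset alone (1516 and 955) and genes with at most 10% overlap (1169 and 820, added after seeing the data). Both moved further with the 6 compared libraries alone (2777 and 2396) and with a limit of 1 on the absolute log2 fold change (249 and 97). With DESeq2's Wald test (2037 and 1428) and a limit of 0.5 (1135 and 474), only the lower count did. Whether replicate numbers pair the libraries was not settled. Same-numbered deviations correlated at 0.15, 0.16 and -0.027, and differently numbered ones between -0.17 and 0.032. With the replicate number as a block the counts were 1277 and 681, and 1528 and 911 with block and offset together. Libraries numbered 1 and 2 correlated best with their own number, and those numbered 3 did not. With a library left out, counts ranged from 334 to 1384 higher and from 128 to 843 lower, and with the offset from 828 to 1655 and from 503 to 925 (919 and 504 without untreated replicate 1, 1040 and 601 without untreated replicate 3, 1046 and 506 without 24 h replicate 2, 828 and 503 without 24 h replicate 1). Where a group was left with 2 libraries, the spread was that of all conditions.

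The slope of 0.241 per 10 points of GC ranged from 0.204 to 0.275 with a library left out and was 0.00524 with the offset. The slope of -0.0543 per doubling of exonic length ranged from -0.0716 to -0.0339, and was -0.109 at 10 CPM or more and -0.107 in protein-coding genes. The SR and hnRNP median of -0.17 turned to 0.107 with the offset, to 0.107 with block and offset, and with the offset to 0.116, 0.106 and 0.103 without untreated replicates 1, 2 and 3 and to 0.110 and 0.138 without 24 h replicates 2 and 3. The mitosis median of -0.10 turned to 0.101 with the representative-transcript offset. CEBPB turned from 0.42 to -0.0762 with the offset, to -0.0328 with the representative-transcript offset, and with the offset to -0.0481, -0.117 and -0.0546 without untreated replicates 1, 2 and 3 and to -0.153, -0.0123 and -0.0696 without 24 h replicates 1, 2 and 3. JUND turned from 0.65 to -0.0495 without 24 h replicate 1 with the offset. Of 106 named genes, 86 kept their side of the threshold with the offset and 19 lost the call. With the offset on representative transcripts the same counts were 86 and 19. The causes were not tested.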
